A study of Mus musculus with 8 samples.

Results

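Gapdh and 9 other genes of glycolysis (Slc2a1, Hk1, Hk2, Pfkp, Aldoa, Pgk1, Eno1, Pkm and Ldha) were followed in mouse dermis with hair follicles. They were chosen by gene symbol from a list of glycolysis genes. All 10 symbols were in the table of 18770 genes, where Aldoa takes 2 entries under separate Ensembl identifiers, so 11 entries were read. All 11 passed the filter on low values that left 15964 genes for testing. Wild-type male C57BL/6 mice of 7 to 8 weeks received either 20 µl of 65% ethanol on the depilated back (vehicle, VC) or the same volume with 3 mg/ml alpinetin (AP), a plant flavonoid. Skin was taken at D4 after depilation, the interfollicular epidermis was then removed, and mRNA was sequenced from 4 libraries per group. The study normalised its qPCR to Gapdh, and the question here is how Gapdh itself behaved beside the rest of its pathway.

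Glycolysis converts glucose to pyruvate in the cytosol, and lactate dehydrogenase then reduces pyruvate to lactate. Skin keratinocytes and cells of the growing hair follicle rely on it heavily, and so does fast skeletal muscle, which carries its own isoforms of several steps (Pfkm, Eno3, Pgam2) beside the more widely used ones (Pfkl, Pfkp, Eno1, Pgam1). Aldoa and Gapdh have no separate muscle gene and are used in muscle and non-muscle cells alike.

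Values are normalized counts, that is reads per gene divided by a size factor for the library, and fold changes are AP over VC on the log2(value + 1) scale. Reads counted on genes numbered 6454563 to 7264151 per VC library and 8507783 to 11190113 per AP library. The mitochondrially encoded genes took up 48.4% ± 5.81 of VC reads but 8.66% ± 2.63 of AP reads (SD, n = 4 each). The choice of scaling therefore matters: with the deposited factors all genes tested had a median log2 fold change of 0.06, and with scaling by total counts it had 0.90. Under total counts 54.2% of genes were called higher in AP and 0.438% lower.

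The labelled tissue was compared with marker genes. Fibroblast markers were abundant in every library, with sums over the 10 genes from 83328 to 256959 normalized counts. Col1a1 was the most abundant by the mean over all 8 libraries, though Col3a1 had the higher VC mean (37553 against 36683). Markers of the suprabasal epidermis were present although that layer had been removed. The sum over these 12 genes, of which Krt10 was the most abundant, came to 6112, 12896, 8856 and 5904 in VC.1 to VC.4 against 43902, 41882, 122656 and 172353 in AP.1 to AP.4. By limma, 9 of the 12 were higher in AP at an adjusted p under 0.05. Basal keratinocyte markers (Krt14 the most abundant) were higher for 3 of 7 and endothelial markers (Pecam1) for 2 of 5. Melanocyte markers (Dct the most abundant) were lower for 4 of 6, and for 1 of 6 without library AP.1 or under total counts. Over all genes tested, limma called 6.33% higher and 4% lower. The share called lower was 5.17% without AP.1 and 0.438% under total counts. None of the marker genes in the table was at 0 reads in every library.

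Skeletal muscle markers set AP.1 apart from the other AP libraries. The sum of the 20 markers came to 72342, 103992, 55649 and 55823 in VC.1 to VC.4. It was 103936 in AP.1, against 14236, 8350 and 17183 in AP.2 to AP.4. Acta1, the most abundant of them, stood at 20882 in AP.1, inside the VC range of 12919 to 26816, and between 1683 and 4337 in the other AP libraries. All 20 markers had fold changes below 0 (median -1.72), but only 2 were called lower by limma. Without AP.1, 19 were called lower, with a median of -2.42. In that fit 6.75% of all genes tested were called higher and 5.17% lower. In bulk tissue, fewer cells of a type and less RNA per cell cannot be told apart. Counts and values without AP.1 are added below where leaving it out changed a call.

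By limma, 1 of the 11 entries (Slc2a1) was higher in AP at an adjusted p under 0.05 and none was lower, where 10.3% of all genes tested were called, 6.33% higher and 4% lower. At an unadjusted p under 0.05, 5 entries were higher (Eno1, Hk1, Hk2, Slc2a1 and Pfkp) and 1 was lower (Aldoa), where 17% and 13.3% of all genes tested were. edgeR called 1 entry higher and DESeq2 called 2 (Slc2a1 and Hk1), and neither called any lower. Over all genes tested, edgeR called 6.28% higher and 4.46% lower, and DESeq2 10.5% and 8.53%. The median log2 fold change of the entries was 0.24, beside 0.06 over all genes. The groups did not overlap for 2 entries (Hk1 and Pfkp) of the 11, and for 19.2% of all genes. Under total counts, 8 of the entries were called higher, as were 54.2% of all genes.

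**Figure D1:**
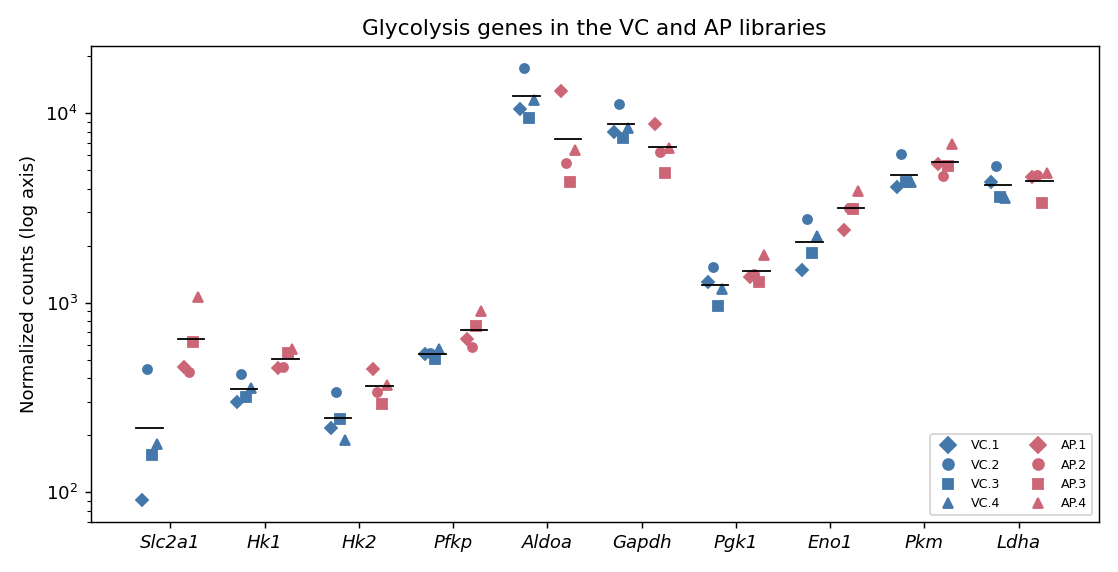
Normalized counts (log axis) of the 10 glycolysis genes in each VC and AP library, in the order of the pathway from uptake to lactate, with a bar at each group mean. With the deposited scaling, Gapdh and Aldoa are the genes whose AP mean lies below the VC mean (log2 fold changes of 0.45 and 0.03 under total counts), and AP.1 (diamond) is the highest AP library for both.

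Glucose enters most cells through Slc2a1 (GLUT1), the transporter of the list (ENSMUSG00000028645, mm10 chromosome 4 from 119108711 to 119137983). It had 91, 445, 158 and 180 normalized counts in VC.1 to VC.4 against 459, 430, 620 and 1075 in AP.1 to AP.4. VC.2 stood far above the other VC libraries and above AP.2, so the groups overlapped (two-sided exact permutation test, p = 0.0571). Its log2 fold change was 1.70 (SE 0.43, n = 4 each, limma adjusted p = 0.0323), the largest of the 10 genes. With each library left out in turn, the call held in 2 of 8 fits (without VC.2, and without AP.1 with 1.83 and an adjusted p of 0.0297). The adjusted p lay between 0.00149 and 0.089 over the alternatives. VC.2 also had the highest VC sums of basal (82600) and suprabasal (12896) keratinocyte markers, and the AP libraries had the same order for Slc2a1 as for the suprabasal sum. The part of these markers in the Slc2a1 difference was not tested. Gm12868, an antisense gene that overlaps Slc2a1, had 0, 60.6, 9.56 and 16.9 normalized counts in the VC group and 68.9, 71.2, 114 and 144 in the AP group, with VC.2 close to AP.1 (log2 fold change 3.20, limma adjusted p = 0.0558). The strand setting of the counting is not given in the sources used here, so reads of these overlapping genes may not be separated.

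Hexokinases trap glucose as glucose 6-phosphate. Hk1 (ENSMUSG00000037012, chromosome 10 from 62268855 to 62379908) had 300, 421, 320 and 353 normalized counts in VC.1 to VC.4 against 455, 457, 544 and 569 in AP.1 to AP.4. Every AP library lay above every VC library, the nearest pair being VC.2 and AP.1. The log2 fold change was 0.54 (SE 0.16, n = 4 each, limma adjusted p = 0.0546), and DESeq2 gave an adjusted p of 0.0215. Without VC.2 the limma adjusted p was 0.0419. Its antisense gene Hk1os had at most 11 reads in any library. Hk2 (ENSMUSG00000000628, chromosome 6 from 82725025 to 82774454), the inducible hexokinase, had 218, 337, 244 and 189 normalized counts in the VC group and 448, 340, 291 and 369 in the AP group. AP.3 fell below VC.2, and the log2 fold change was 0.56 (SE 0.21, n = 4 each, limma adjusted p = 0.1). Without VC.2 it was 0.72, with an adjusted p of 0.048.

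Phosphofructokinase commits the sugar to glycolysis. Its platelet-type gene Pfkp (ENSMUSG00000021196, chromosome 13 from 6579768 to 6648777) had 535, 545, 504 and 570 normalized counts in VC.1 to VC.4 against 642, 581, 751 and 906 in AP.1 to AP.4. The groups were separate, though AP.2 was only just above VC.4. The log2 fold change was 0.40 (SE 0.16, n = 4 each, limma adjusted p = 0.126). Pitrm1, which overlaps the end of Pfkp on the other strand, had 238 to 455 normalized counts.

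Aldolase A splits fructose bisphosphate. The main Aldoa entry (ENSMUSG00000030695, chromosome 7 from 126795234 to 126800751) had 10560, 17396, 9370 and 11678 normalized counts in VC.1 to VC.4 against 13126, 5473, 4321 and 6365 in AP.1 to AP.4. AP.2, AP.3 and AP.4 were below all VC libraries, and AP.1 was above VC.1, VC.3 and VC.4. The log2 fold change was -0.84 (SE 0.34, n = 4 each, limma adjusted p = 0.124). Without AP.1 it was -1.16 with an adjusted p of 0.0232, and under total counts it was 0.03 (adjusted p = 0.931). The lowest and highest adjusted p of the alternatives were these 0.0232 and 0.931. The second Aldoa entry (ENSMUSG00000114515, chromosome 7 from 126800790 to 126809108) held only 4.98 to 24.7 normalized counts, with a log2 fold change of -0.68 (SE 0.60, limma adjusted p = 0.467). Both entries overlap Tlcd3b on the opposite strand, which had 973 to 2834 normalized counts.

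Gapdh oxidises glyceraldehyde 3-phosphate, and its gene (ENSMUSG00000057666) lies on chromosome 6 from 125161715 to 125166467. Gapdh had 7989, 11222, 7423 and 8318 normalized counts in VC.1 to VC.4 against 8766, 6239, 4854 and 6516 in AP.1 to AP.4. AP.1 stood above VC.1, VC.3 and VC.4, whereas AP.2, AP.3 and AP.4 were below every VC library. The means were 8738 ± 1697 in VC and 6594 ± 1620 in AP (SD, n = 4 each), and the log2 fold change was -0.42 (SE 0.23, limma adjusted p = 0.249). The exact permutation test gave p = 0.114 (two-sided), where 4 libraries against 4 allow 0.0286 at the least. No fit called Gapdh, with adjusted p from 0.109 to 0.626 over the alternatives. Its direction turned under total counts (0.45, adjusted p = 0.109), but relative to the median of all genes it was -0.48 with the deposited factors and -0.45 under total counts. Without AP.1 the fold change was -0.57 (adjusted p = 0.133).

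As a share of all counted reads, Gapdh was lower in the VC group, at 0.0811% ± 0.0223, than in the AP group, at 0.11% ± 0.0232 (SD, n = 4 each, two-sided exact permutation test, p = 0.171). With the mitochondrially encoded genes left out the order was turned, 0.156% ± 0.0312 in VC and 0.121% ± 0.0284 in AP (exact permutation test, p = 0.114). Neither difference passed the test. The lowest and highest shares were those of VC.1 and AP.1, which are in different groups. VC.1 held 4392 Gapdh reads, a share of 0.0605% with a 95% Wilson interval from 0.0587% to 0.0623%. AP.1 held 12086, or 0.1421% (0.1395% to 0.1446%). Such intervals cover counting error only.

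The 4 members that act after Gapdh (Pgk1, Eno1, Pkm and Ldha) had fold changes above 0 with the deposited factors, and none was called. Phosphoglycerate kinase, Pgk1 (ENSMUSG00000062070, chromosome X from 106187100 to 106203699), had 1288, 1540, 957 and 1185 normalized counts in the VC group and 1366, 1409, 1284 and 1790 in the AP group. The ranges overlapped widely, and the log2 fold change was 0.24 (SE 0.18, n = 4 each, limma adjusted p = 0.38). Enolase 1, Eno1 (ENSMUSG00000063524, chromosome 4 from 150236721 to 150248879), had 1492, 2771, 1838 and 2248 in VC and 2425, 3175, 3133 and 3870 in AP. Only AP.1 fell below the highest VC library, VC.2, and the log2 fold change was 0.61 (SE 0.22, n = 4 each, limma adjusted p = 0.0862).

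Pyruvate kinase, Pkm (ENSMUSG00000032294, chromosome 9 from 59656368 to 59679375), had 4075, 6119, 4349 and 4337 normalized counts in VC.1 to VC.4 against 5400, 4641, 5254 and 6887 in AP.1 to AP.4. VC.2 again stood above its group, and the log2 fold change was 0.24 (SE 0.20, n = 4 each, limma adjusted p = 0.454). Its muscle and non-muscle splice forms are summed in these values. Lactate dehydrogenase A, Ldha (ENSMUSG00000063229, chromosome 7 from 46841475 to 46855627), had 4318, 5273, 3631 and 3557 in VC and 4576, 4736, 3347 and 4850 in AP. The groups covered nearly the same range, with a log2 fold change of 0.06 (SE 0.20, n = 4 each, limma adjusted p = 0.852), and -0.01 without VC.4. VC.2 was the highest VC library for every member but Pfkp and the second Aldoa entry.

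Per kilobase of the longest coding transcript in GENCODE's basic set, Aldoa (7909 normalized counts per kb) and Gapdh (6153) led the VC group, followed by Ldha (2311), Pkm (1941), Eno1 (1030), Pgk1 (681), Pfkp (130), Hk1 (81.4), Slc2a1 (67) and Hk2 (44.8). The place of Slc2a1 among the last of these was not the same in every VC library, with VC.2 far above the others. In the AP group Aldoa (4727) and Gapdh (4644) were nearly level, well within their spread. Slc2a1 (198 per kb) and Pfkp (174) were also close, and their order was not the same in every AP library.

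The ratio of Gapdh to another gene inside a library does not depend on the scaling between libraries. The log2 ratio of Gapdh to Hk2 came to 5.19, 5.05, 4.92 and 5.45 in VC.1 to VC.4 against 4.29, 4.20, 4.06 and 4.14 in AP.1 to AP.4. AP.1 sided with its own group here, and the difference was -0.98 (two-sided exact permutation test, p = 0.0286). The ratio to Eno1 was 2.42, 2.02, 2.01 and 1.89 in VC and 1.85, 0.97, 0.63 and 0.75 in AP, a difference of -1.03 (exact p = 0.0286), with AP.1 next to the VC libraries. The ratio to Slc2a1 differed by -2.12, that to Hk1 by -0.96, that to Pfkp by -0.82 and that to Pkm by -0.66, each with groups that did not overlap (exact permutation test, p = 0.0286).

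In all, 6 of the 9 ratios were lower in AP without overlap. Over all 15963 other genes tested, the ratio of Gapdh to the gene was lower in AP without overlap for 12.8% and higher for 0.827%, with a median difference of -0.48. The exact p of 0.0286 is the smallest possible with these groups, so adjustment over 15963 genes could not single out a ratio (smallest adjusted p 0.209) and is not read as a result. The ratios to Pgk1 (-0.66) and Ldha (-0.48) overlapped through AP.1 (exact permutation test, p = 0.0571 for each). Aldoa alone went the other way: the log2 ratio of Gapdh to Aldoa was -0.40, -0.63, -0.34 and -0.49 in VC and -0.58, 0.19, 0.17 and 0.03 in AP. AP.1 lay within the VC range and the other AP libraries above it, and the difference was 0.42 (exact permutation test, p = 0.114). Without AP.1 all 9 ratios were free of overlap, though 3 libraries against 4 cannot give an exact p below 0.0571. Over all genes, a count added after seeing the data, the ratio without AP.1 was lower in AP without overlap for 33.1% and higher for 2%, against 8 and 1 of the 9.

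Longer transcripts tended to have higher fold changes (Spearman's rho 0.436 across 11255 genes, which are not independent replicates), and Gapdh, at 1420 bases, has the shortest transcript of the 10 main entries. With the length trend taken out of each library, 3 of the 9 ratios (Pkm, Hk2 and Slc2a1) were lower in AP without overlap, against 6.68% of all genes. The difference for Slc2a1 was then -1.78, for Pkm -0.47 and for Hk2 -0.43, so that of Hk2 shrank while its groups remained separate. Eno1 kept most of its size at -0.90 with groups no longer separate (exact permutation test, p = 0.0571). Hk1 (-0.51, exact p = 0.0571) and Pfkp (-0.37, exact p = 0.257) were smaller and overlapped.

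Over the 8 libraries, the members differed in how they followed Gapdh on the log2 scale. Aldoa had a Pearson's r of 0.980 with Gapdh, Ldha 0.503, Pgk1 0.048, Pkm 0.046 and Hk2 0.008. The values for Slc2a1, Eno1, Hk1 and Pfkp were -0.317, -0.376, -0.465 and -0.536. Among 11247 genes outside the members, those most like Gapdh were Gm15932 (an antisense transcript, r = 0.978), Tpm1 (0.962), Ccdc127 (0.956), Tpm2 (0.954) and Des (0.954). Tpm1 and Tpm2 encode tropomyosins and Des encodes desmin, proteins of muscle fibres, and Des is also on the list of muscle markers. Their log2 fold changes ran from -0.24 for Ccdc127 to -1.33 for Des (limma adjusted p = 0.34 and 0.105). These correlations are descriptions of 8 libraries that differ in treatment, depth and muscle level together, and carry no test.

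**Figure D2:**
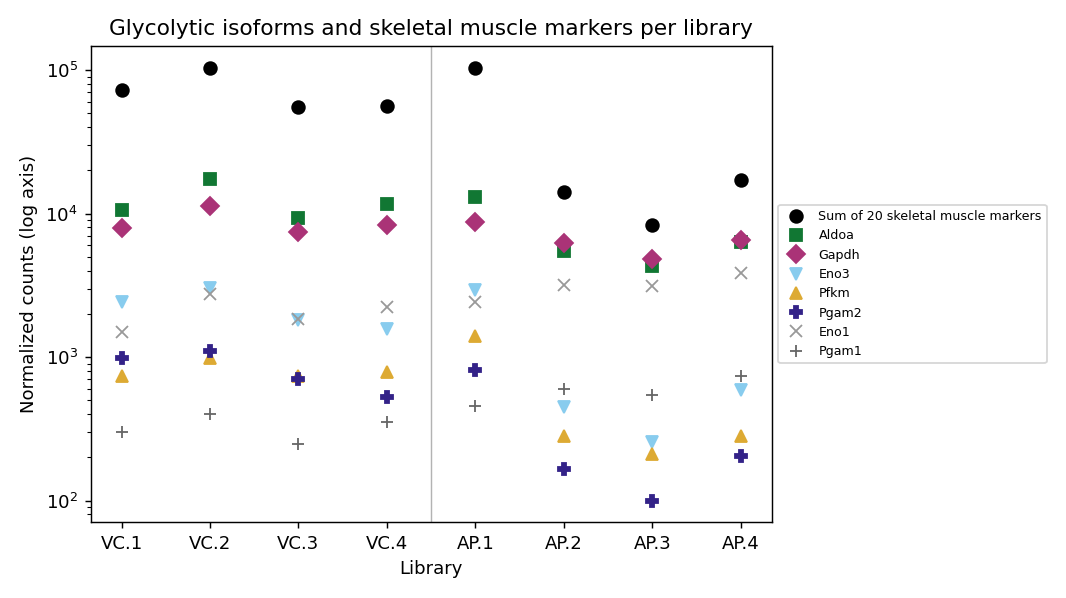
Normalized counts (log axis) per library of Aldoa, Gapdh, the muscle isoforms Eno3, Pfkm and Pgam2, the wider isoforms Eno1 and Pgam1, and the sum of the 20 skeletal muscle markers. AP.1 lies with the VC libraries for the muscle sum (103936) and for Eno3 (2931), while AP.2 to AP.4 are lower, with Eno3 from 258 to 590.

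The mutase step was the only step with a muscle isoform and a wider one that were both called by limma with all 8 libraries. Eno3, the muscle enolase (ENSMUSG00000060600, chromosome 11 from 70657202 to 70662513), had 2401, 3019, 1804 and 1581 normalized counts in VC.1 to VC.4 against 2931, 448, 258 and 590 in AP.1 to AP.4. Pgam2, the muscle phosphoglycerate mutase (ENSMUSG00000020475, chromosome 11 from 5801640 to 5803733), had 986, 1102, 709 and 529 in VC and 810, 166, 100 and 206 in AP. Both stood within the VC range in AP.1 and below it in the other AP libraries. The log2 fold change was -1.67 for Eno3 (SE 0.58, n = 4 each, limma adjusted p = 0.0802). It was -1.79 for Pgam2 (SE 0.51, n = 4 each, limma adjusted p = 0.0477), a call that held in 1 of 8 fits with a library left out. edgeR (-1.39, adjusted p = 0.111) and DESeq2 (-1.38, adjusted p = 0.0541) did not call Pgam2, and its adjusted p over the alternatives lay between 0.00179 and 0.132 (the latter under total counts, with -0.93). Without AP.1 the limma values of Eno3 and Pgam2 were -2.38 (adjusted p = 0.00169) and -2.40 (adjusted p = 0.00179). Pfkm, the muscle phosphofructokinase, had 737 to 987 in VC, 1411 in AP.1 and 212 to 283 in the other AP libraries. Pfkm had a log2 fold change of -1.03 (SE 0.47, n = 4 each, limma adjusted p = 0.164), and of -1.65 without AP.1 (adjusted p = 0.00135, the highest of the alternatives being 0.774). Eno3 and Pfkm were chosen for mention as muscle isoforms after their values were seen.

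The wider mutase gene Pgam1 (ENSMUSG00000011752, chromosome 19 from 41911923 to 41918660) went the other way. It had 302, 402, 249 and 354 normalized counts in VC.1 to VC.4 against 456, 600, 543 and 735 in AP.1 to AP.4. The groups were separate, and Pgam1 rose by 0.84 on the log2 scale (SE 0.20, n = 4 each, limma adjusted p = 0.0271). The call held in 4 of 8 fits with a library left out, and its adjusted p ranged from 0.000466 to 0.0816 over all alternatives. The Pgam1 call was also lost without the intensity trend (limma adjusted p = 0.0707). The summed muscle markers moved with Gapdh, Aldoa, Eno3, Pfkm and Pgam2 across the libraries, and their part in these differences was not tested.

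Among the other enzymes and isoforms of glycolysis, Pgam1 was called higher and Pgam2 lower out of 14 genes tested, with a median log2 fold change of -0.17. Without AP.1, 2 of these were called higher and 3 lower, where 6.75% and 5.17% of all genes tested were. Tpi1, the triose phosphate isomerase, was the most abundant of them by the mean over all 8 libraries. It had 2091 ± 391 normalized counts in VC and 1973 ± 332 in AP (SD, n = 4 each, limma adjusted p = 0.798). In VC the means of Eno3 (2201) and Gpi1 (2161) were higher. Of 14 genes of transport and control, 1 was higher by limma and none was lower, at a median of -0.04. Over all genes tested, limma called 6.33% higher and 4% lower. At an unadjusted p under 0.05, 5 were higher and 0 were lower, where 17% and 13.3% of all genes tested were. edgeR and DESeq2 called 1 and 2 higher, where 6.28% and 10.5% of all genes tested were called higher. The gene called was Hif1a (ENSMUSG00000021109, chromosome 12 from 73901375 to 73947530), which encodes the oxygen-regulated subunit of a transcription factor that drives many glycolysis genes. It had 377, 465, 356 and 405 normalized counts in VC and 537, 760, 816 and 1005 in AP. All AP libraries were above all VC libraries, and Hif1a rose by 0.93 (SE 0.19, n = 4 each, limma adjusted p = 0.0184). That call held in 6 of 8 fits with a library left out (up to 0.0654 over all alternatives). The Hif1a call was also lost with the length trend removed (0.68, limma adjusted p = 0.0577) and without the intensity trend (0.0563).

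Of 14 hypoxia genes outside glycolysis, 2 were higher by limma and none was lower, with a median of 0.51 and 13 of the 14 above 0, beside 6.33% higher and a median of 0.06 over all genes. At an unadjusted p under 0.05, 6 were higher, where 17% of all genes tested were. edgeR called 2 higher and DESeq2 called 4, where 6.28% and 10.5% of all genes tested were called higher. Without AP.1 limma called 1, where 6.75% of all genes tested were called higher. The medians of the suprabasal (2.96), basal keratinocyte (1.02) and endothelial markers (1.44) were above 0 too. The part of these markers in the differences of Pgam1, Hif1a and the hypoxia genes was not tested. Egln3, an oxygen-sensing prolyl hydroxylase (ENSMUSG00000035105, chromosome 12 from 54178981 to 54203860), had 80, 201, 150 and 137 normalized counts in VC and 337, 293, 306 and 670 in AP. AP.4 was far above the other AP libraries, all of them above VC, and Egln3 rose by 1.48 (SE 0.32, n = 4 each, limma adjusted p = 0.0205, and 0.0542 without AP.4). The Egln3 call was also lost without the intensity trend (limma adjusted p = 0.0593). Bhlhe40, a transcriptional repressor (ENSMUSG00000030103, chromosome 6 from 108660629 to 108666925), rose by 0.61 (SE 0.17, n = 4 each, limma adjusted p = 0.0418). That call was lost in all 8 fits but the one without VC.3. Ndrg1, the most abundant of the list, had 829 ± 159 in VC and 1079 ± 174 in AP (SD, n = 4 each, limma adjusted p = 0.175).

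Neighbouring pathways held no gene called by limma with all 8 libraries. For the counts that follow, 13.3% of all genes tested were lower at an unadjusted p under 0.05. Over all genes, edgeR called 4.46% lower, DESeq2 8.53%, and limma without AP.1 5.17%. None of 13 genes of pyruvate dehydrogenase and its kinases was called (median -0.19, with Pdha1 the most abundant); at an unadjusted p under 0.05, 3 were lower, edgeR called 0 and DESeq2 called 1 lower, and limma without AP.1 called 1 lower. For 7 genes of the pentose phosphate pathway the median was -0.07, with Tkt the most abundant, 2 lower at an unadjusted p under 0.05, and 0 by edgeR and 1 lower by DESeq2. For 12 genes of glycogen metabolism it was -0.24, with Pygm, the muscle phosphorylase, the most abundant, 3 lower at an unadjusted p under 0.05, and 0 by edgeR and 1 lower by DESeq2. Without AP.1, 4 of these 12 were called lower by limma, where 5.17% of all genes tested were. For 6 genes of gluconeogenesis it was -0.16. Pcx was the most abundant of these by the mean over all 8 libraries, though Pck1 had the higher VC mean (1187 against 1036). Of the 6, 1 was lower at an unadjusted p under 0.05, 0 were called by edgeR or DESeq2, and 1 was lower by limma without AP.1. Over these pathways, the other glycolysis lists and the hypoxia list, 4 of 80 genes tested were higher and 1 was lower, at a median of -0.05, beside 6.33% higher, 4% lower and a median of 0.06 over all genes.

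Gapdh was then set against 16 other genes in common use as qPCR references. By size of the log2 fold change with the deposited factors the smallest were those of B2m (0.02, SE 0.20), Sdha (0.06, SE 0.15), Gusb (-0.09, SE 0.26) and Tbp (-0.10, SE 0.18). Ywhaz (0.11), Eef2 (-0.14), Ppia (-0.21), Hprt (-0.24), Rplp0 (-0.32), Rps18 (-0.32) and Eef1a1 (-0.37) came between these and Gapdh (-0.42). Polr2a had the same size as Gapdh, at 0.42, and larger ones were found for Tubb5 (-0.48), Actb (-0.56), Tfrc (0.58) and Rpl13a (-1.01). This order does not hold under other scalings: under total counts Rpl13a (-0.15), Actb (0.31), Tubb5 (0.39) and Gapdh (0.45) had the smallest sizes and B2m was at 0.89. With the length trend removed, Tbp (12794 bases) was at -0.66 and Gapdh (1420 bases) at -0.18. These lengths are those of the longest coding transcript of each gene. Which transcript of Tbp the reads came from was not tested, so its value rests on that choice.

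Of the 16, Rpl13a, a ribosomal protein gene, was the only one called by limma (SE 0.27, n = 4 each, adjusted p = 0.0399), and DESeq2 called 3 lower. Over all genes tested, limma called 6.33% higher and 4% lower, and DESeq2 10.5% and 8.53%. Rpl13a had 597, 340, 397 and 332 normalized counts in VC.1 to VC.4 against 168, 133, 234 and 303 in AP.1 to AP.4. These groups were separate, but the call held only without VC.2 or without AP.4 among the 8 fits with a library left out (adjusted p = 0.0646 without AP.1). Under total counts the fold change was -0.15, with the highest adjusted p of the alternatives (0.659, the lowest being 0.0126). The Rpl13a call was also lost with the length trend removed (limma adjusted p = 0.113) and without the intensity trend (0.0914). Per kilobase, Rpl13a had 398 normalized counts in VC, far below Rplp0 (14017) and Rps18 (17710). Sequence shared with other genes was not looked up for the reference genes, and its part in the Rpl13a values was not tested. Over the 8 libraries the SD of log2 values was 0.36 for Gapdh, 0.16 for Sdha, 0.18 for Ppia, 0.19 for Tbp, 0.37 for Actb and 0.69 for Rpl13a. A p that misses the threshold does not show that a reference was level between the groups.

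**Figure D3:**
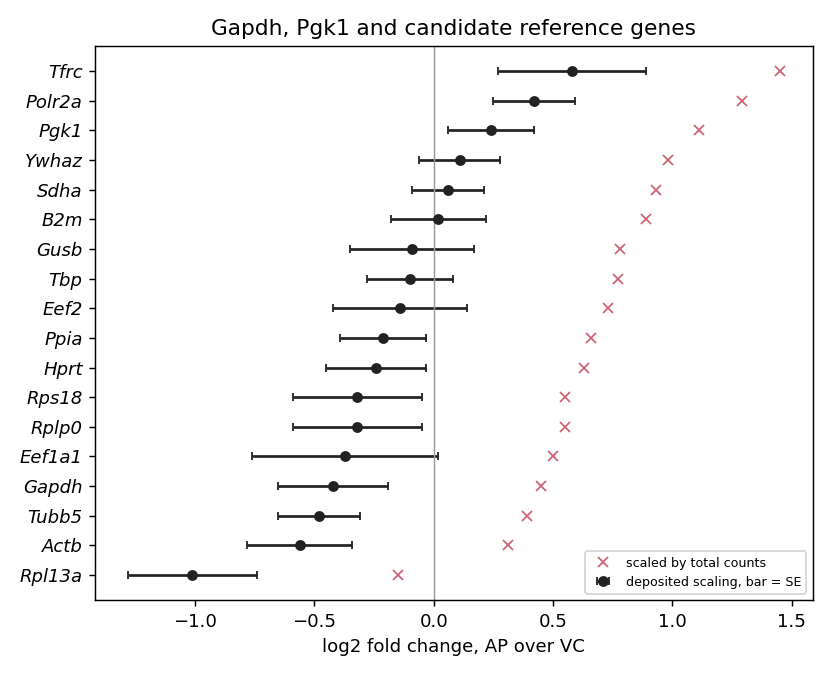
Log2 fold changes, AP over VC, of Gapdh, Pgk1 and the 16 candidate reference genes with the deposited scaling (points, bars show the SE) and with scaling by total counts (crosses). Gapdh lies at -0.42 with the deposited scaling and at 0.45 with total counts, while Rpl13a is below 0 under both.

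Within libraries, none of the 16 ratios of Gapdh to a reference passed the two-sided exact permutation test, before or after adjustment over the 16. The differences ran from -1.0 for Tfrc to 0.59 for Rpl13a, with a median of -0.24, and 13 were below 0. For Sdha the log2 ratio came to 3.03, 3.37, 2.93 and 3.24 in VC.1 to VC.4 against 2.96, 2.40, 2.48 and 2.81 in AP.1 to AP.4. AP.1 alone lay in the VC range, and the difference was -0.48 (exact permutation test, p = 0.0571, adjusted p = 0.549). For Actb it was -0.83, 0.37, -0.80 and -0.52 in VC and -0.01, -0.23, -0.70 and -0.28 in AP, a difference of 0.14 (exact permutation test, p = 0.686, adjusted p = 0.879). Without AP.1, 4 of the 16 ratios had groups that did not overlap, where over all genes 33.1% were lower and 2% higher without overlap.

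The genes the study measured by qPCR against Gapdh were Fzd1, a Wnt receptor, and Lef1, a transcription factor of Wnt signalling. The paper reports that both were higher with AP than with vehicle in that qPCR. Fzd1 (ENSMUSG00000044674, chromosome 5 from 4753839 to 4758035) had 315, 288, 556 and 272 normalized counts in VC.1 to VC.4 against 722, 783, 873 and 510 in AP.1 to AP.4. AP.4 fell below VC.3, and the log2 fold change was 1.05 (SE 0.25, n = 4 each, limma adjusted p = 0.0258). That call held in 3 of 8 fits with a library left out (without VC.3, AP.1 or AP.4), and was lost with the length trend removed (0.0556) and without the intensity trend (0.0726), in a range of adjusted p from 0.00109 to 0.0876. Its log2 ratio to Gapdh was -4.66, -5.28, -3.74 and -4.93 in VC and -3.60, -2.99, -2.47 and -3.67 in AP. No AP library overlapped VC, and the difference was 1.47 (two-sided exact permutation test, p = 0.0286, adjusted p = 0.0747 over 17 denominators), and 1.61 without AP.1. With the length trend removed it was 1.02, and the groups were no longer separate (exact permutation test, p = 0.0571). Over the 17 denominators, Gapdh among them, the difference was above 0 for all, from 0.47 (Tfrc) to 2.06 (Rpl13a) with a median of 1.26. For 4 denominators (Gapdh, Actb, Rpl13a and Tubb5) the groups did not overlap. The 17 ratios share the same Fzd1 values and are not independent. No share over all genes as denominators is given here, so this count is not read as a result.

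Lef1 (ENSMUSG00000027985, chromosome 3 from 131110471 to 131224356) had 326, 270, 445 and 180 normalized counts in VC.1 to VC.4 against 152, 190, 339 and 117 in AP.1 to AP.4. The groups overlapped, and the log2 fold change was -0.65 (SE 0.34, n = 4 each, limma adjusted p = 0.217), and 0.21 under total counts. Relative to Gapdh it was -4.61, -5.37, -4.06 and -5.52 in VC and -5.84, -5.03, -3.84 and -5.79 in AP. The difference was -0.23 (exact permutation test, p = 0.714, adjusted p = 0.789). It ran from -1.23 (Tfrc) to 0.36 (Rpl13a) over the 17 denominators, and no denominator gave an unadjusted p under 0.05. The rise of Lef1 relative to Gapdh that the paper reports from qPCR was not seen in these libraries.

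**Figure D4:**
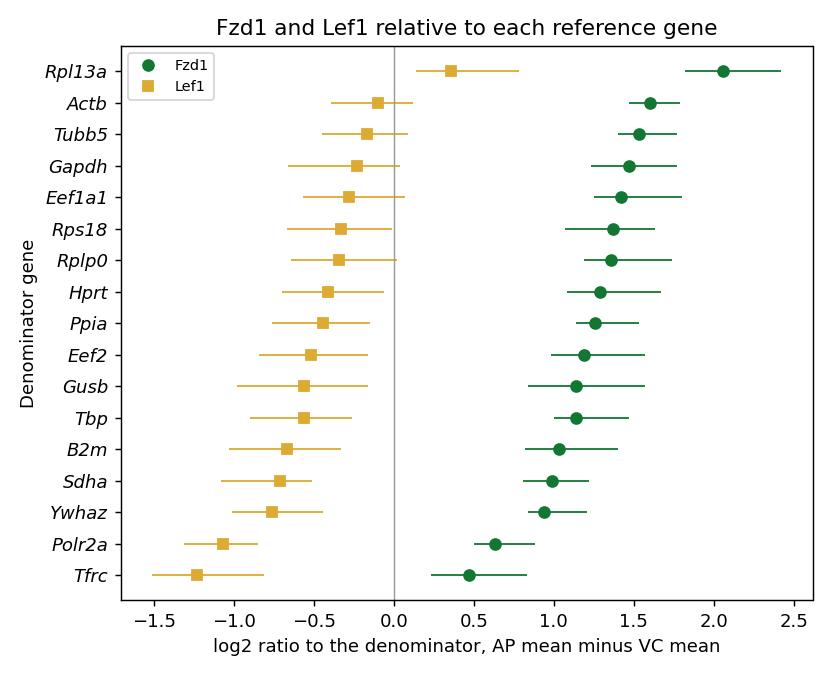
Difference between the AP and VC means of the log2 ratio of Fzd1 and of Lef1 to each denominator gene, with lines from the lowest to the highest value when a library is left out. Every Fzd1 point lies above 0, at 1.47 for Gapdh, and the Lef1 point for Gapdh lies at -0.23 with a line that reaches 0.04.

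The Gapdh primers of the study are shown because they mark the part of the gene that its qPCR reads. The forward primer lies in exon 5 and the reverse primer in exon 6 of the 7 exons of ENSMUST00000118875, both in coding sequence, from 125162281 to 125162542 on the minus strand of mm10 chromosome 6. The product has 178 bases in the spliced transcript, printed 5′ to 3′ with the primer sites in capitals, the second as the reverse complement of the reverse primer.
Gapdh product: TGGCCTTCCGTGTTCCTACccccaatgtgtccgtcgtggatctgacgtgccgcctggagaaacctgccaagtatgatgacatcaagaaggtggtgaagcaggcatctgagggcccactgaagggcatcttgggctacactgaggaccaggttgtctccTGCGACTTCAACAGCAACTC
Both primer sites also occurred, exactly and in order, in the GENCODE M21 transcripts of 43 other genes, of which 40 are annotated as processed pseudogenes. For Lef1 the number of such genes was 0. The product of the Lef1 primers has 87 bases, with the reverse primer across the junction of exons 7 and 8 of 12. The Fzd1 forward primer as printed had no exact match in the Fzd1 transcript. With 1 of its bases left out it matched at base 1349, which gives a product of 178 bases with the reverse primer.

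The same copies bear on the read counts. Of the 50-base words of the Gapdh transcript, 82.5% also occur in transcripts of other genes (218 genes in all), as do 72.2% for Eno1, 68% for Pgk1, 34.4% for Pkm, 16.6% for Ldha and 13.5% for Aldoa. Hk1, Hk2, Slc2a1 and Pfkp share none. How reads that fit several places were counted is not given in the sources used here, so the levels of Gapdh, Eno1 and Pgk1 carry that uncertainty. Of the genes in the table that share words with them, Gm3839 (57.1% of the Gapdh words) had 0 to 5 reads per library and Eno1b (70.5% of the Eno1 words) also had 0 to 5. Peli2, which shares 6.13% of the Gapdh words, had 95 to 614.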

How the data were processed

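The signal of each library was deposited by the authors as normalized counts, that is reads per gene over a DESeq2 size factor. According to the paper's methods and the submitters' processing notes, reads were aligned to mm10 with STAR; the methods name featureCounts for counting and the notes name HTSeq, and versions are not given in the sources used here. The table also holds the authors' own DESeq2 comparison (fold changes, p-values and adjusted p-values), which was not used. All 150160 values were whole multiples of 1 step per library (within 0.1 read), so whole reads were recovered for 100% of them; on these, edgeR called 1003 genes higher and 712 lower, and DESeq2 1677 and 1362. Replicates are separate mice according to the paper, but the columns VC.1 to AP.4 could not be tied to individual mice.

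limma 3.58.1 in R 4.3.3 was run with an intensity trend on log2(value + 1) for the 15964 genes that reached 3 normalized counts in 4 or more of the 8 libraries, with Benjamini-Hochberg adjustment over all of them and calls at an adjusted p under 0.05. Within-library log2 ratios, also with a pseudocount of 1, were compared with two-sided exact permutation tests over the 70 assignments of 4 libraries against 4. The adjustment planned over the 9 ratios of Gapdh to members is not given; the same ratio over all genes tested, chosen after seeing the data, takes its place. Alternatives were TMM, upper-quartile and total-count scaling (with and without mitochondrially encoded genes), pseudocounts of 0.5 and 5, other filters, edgeR 4.0.16, DESeq2 1.42.0 and voom on the recovered reads, limma without the trend, a loess length trend (span 0.3) removed, reads drawn down to 3080758, and each library left out. The steps were tested on simulated data. Depth was 6454563 to 11190113 reads per library.

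Members and gene lists were chosen with earlier results of these data known. The most abundant gene of a list is that with the highest mean over all 8 libraries. The order can differ within a group. Named are the 10 members, those of the other pathway genes that were called and the most abundant gene of each list, 16 candidate reference genes (2 others, planned and fitted at first, are not reported here and were taken out of the counts and adjustments after the results were seen), Fzd1, Lef1, and the 5 genes with the highest Pearson correlation with Gapdh at a mean of at least 50 normalized counts; of each marker list, the most abundant gene and those at 0 reads throughout. The marker lists of hair matrix (Krt71 the most abundant, 1 of 9 higher), adipocytes (Cfd, 0 of 10), red blood cells (Hbb-bs, 1 of 6 higher), leukocytes (Cd74, 1 of 10 higher), fibroblasts (0 of 10) and mitochondrially encoded genes (mt-Co1, 10 of 12 lower) were read in the same way by limma; for adipocytes and fibroblasts, 2 and 1 were higher and 0 and 1 lower at an unadjusted p under 0.05, edgeR called 0, and DESeq2 called 0 and 1 lower; without AP.1, limma called 1 fibroblast marker lower, 2 hair matrix markers higher and 2 leukocyte markers higher. Over all genes tested, limma called 6.33% higher and 4% lower, and 6.75% and 5.17% without AP.1. At an unadjusted p under 0.05, 17% of all genes were higher and 13.3% lower. edgeR called 6.28% higher and 4.46% lower, and DESeq2 10.5% and 8.53%. Coordinates, transcripts and lengths are from GENCODE M21. The primers are those of the study.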

Additional observations from a re-analysis of the deposited data

Results flagged for a closer look

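In a group of 4 libraries, a value far from the other 3 was looked for in 82 groups, and 9 were found, where chance gives about 1 in 20. AP.1 was far above the other AP libraries for Eno3 (2931 normalized counts), Pfkm (1411), Pgam2 (810) and the summed skeletal muscle markers (103936). VC.2 was far above its group for Pkm (6119), and VC.3 for Fzd1 (556) and Bhlhe40 (362). AP.4 was far above its group for Egln3 (670) and Rplp0 (17689).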

How the results depend on the processing

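Gapdh kept its direction under the alternatives except total counts, where its log2 fold change was 0.45 (adjusted p = 0.109). Total counts also turned Aldoa (0.03, and 0.12 for its second entry) and Lef1 (0.21), and raised the members called higher from 1 to 8 (54.2% of all genes). That number was 2 with DESeq2, 0 by limma without the intensity trend (1 by edgeR, and 5 at an unadjusted p under 0.05 by limma with the trend), and from 0 to 3 with a library left out. The number called lower was from 0 to 1 with a library left out (Aldoa without AP.1). An unadjusted p under 0.01 with a fold over 1.5, chosen after seeing the data, gave 1 higher and 0 lower. No share of all genes at that threshold is given here, so this count is not read as a result. Ldha was from -0.01 (without VC.4) to 0.19 (without AP.3) with a library left out. With the length trend removed, 3 ratios of Gapdh to members had groups that did not overlap, in place of 6, the ratio of Fzd1 to Gapdh differed by 1.02 (exact permutation test, p = 0.0571), and the ratios of Gapdh to Tbp (0.48), Eef1a1 (0.06) and Eef2 (0.03) turned. With a library left out, the ratios of Gapdh to reference genes without overlap numbered from 0 to 4. The causes were not tested. No paired analysis was possible because the labels pair no VC mouse with an AP mouse, and the column numbers do not match all the sample numbers. With 4 libraries a group, the exact tests cannot go below 0.0286.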
